A study of Danio rerio with 10 samples.

Results

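The skeletal troponins and alpha actins are 10 genes of the thin filament, the actin cable of the striated muscle sarcomere along which myosin pulls. They were taken by gene symbol from the deposited table, where all 10 were found among 32266 gene IDs and none was dropped by the filter on low counts. They comprise 3 troponin T genes (tnnt3a, tnnt3b and tnnt1), 4 troponin I genes (tnni2a.4, tnni2b.1, tnni2b.2 and tnni1al), the troponin C gene tnnc2, and the alpha actin genes acta1a and acta1b. No sequence was used here.

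The libraries hold polyadenylated RNA from whole zebrafish embryos (Danio rerio) at 33 hours post fertilization, in pools of 10 embryos. Embryos of genotype rbpms2a-/-; rbpms2b-/-, mutant on all alleles of both zebrafish copies of an RNA-binding protein gene expressed in heart muscle, were recognised by eye and pooled apart from their control siblings. The siblings are labelled wt, and a sort by eye cannot part wild-type animals from carriers. Each group has 5 libraries, numbered 1, 2, 3, 4 and 6 in both groups, and they are called control 1, mutant 1 and so on. The labels do not explain the numbers, and do not say that they mark a clutch, a day or a batch.

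In a resting sarcomere, tropomyosin lies along the actin filament and covers the sites that myosin binds. Troponin T ties the troponin complex to tropomyosin, troponin I keeps the filament switched off at rest, and troponin C binds calcium and lifts that block. Vertebrates have separate fast, slow and cardiac genes for troponin T and troponin I, and fast fibres make up most of the somite muscle of the young zebrafish. The symbols tnnt3, tnni2 and tnnc2 name fast skeletal subunits and tnnt1 the slow skeletal troponin T. The gene listed as tnni1al is named tnni4b.2 in a newer gene table, so no fibre type is given to it here. There tnnc2 is named tnnc2.2 and has a gene tnnc2.1 within 3 coding genes of it. Alpha actin of the acta1 type is the actin of skeletal muscle.

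Of the targeted genes, rbpms2a lay at 4.25 to 7.05 CPM (counts per 1000000 after scaling) in the controls and at 2.42 to 3.91 CPM in the mutants, without overlap, while rbpms2b overlapped (10.3 to 18.3 and 12 to 22.2 CPM); a transcript can persist in a mutant. Total counts ran from 21.5 M (control 6; M, 1000000 counts) to 36.0 M, and the 10 genes together took 0.71 to 1.26% of a library's counts. Skeletal muscle was well represented: 10 of 10 markers of skeletal fibres (fast myosin light chains, muscle creatine kinases, parvalbumins, alpha-actinins, the calcium pump gene atp2a1 and slow myosin) summed to 17398 to 33861 CPM, against 119.6 to 154 CPM for 6 heart muscle markers. No marker of skeletal fibres or of heart muscle was under 1 CPM in all libraries. Tnnt1 went against the name of the set in that it stayed under 1 CPM in every library, so its 10 values say little about skeletal muscle. Estimated counts were whole in 10 of 10 libraries for tnnt1, tnni2b.2 and tnni1al. For the other 7 genes some reads had been divided with other loci, so their levels are uncertain to that extent, as are those of actin genes with nearly identical coding sequence. Counts were whole in 9 libraries for tnni2a.4, 6 for acta1a and 5 for tnni2b.1. They were whole in 2 for tnnt3a, 2 for tnnt3b, and 0 for tnnc2 and acta1b. How many reads were divided cannot be read from this. A whole embryo pool mixes tissues, so fewer muscle cells and less RNA per muscle cell cannot be told apart in any value below.

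Levels per gene length spanned more than 3 orders of magnitude. In the deposited FPKM values (fragments scaled to gene length and to library size), tnnc2 had the highest mean over the 10 libraries, 2101 FPKM, with a range of 1646 to 2608. Acta1b followed at 2039.6 FPKM (1229.7 to 3547) and tnni2a.4 at 1925 FPKM (1589 to 2309.8). The order among these 3 was not stable: tnnc2 exceeded acta1b in 6 of 10 libraries, and acta1b exceeded tnni2a.4 in 4 of 10. Tnnt3b (1530.4 FPKM) lay under tnni2a.4 in 10 of 10 libraries and over tnnt3a (1211 FPKM) in 9 of 10.

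A clear step separated tnnt3a from tnni2b.1 and acta1a, whose means were 449.6 and 429 FPKM and which exchanged places between libraries, tnni2b.1 being the higher in 6 of 10. Tnni1al stood at 66.2 FPKM (58.7 to 76.9). Tnni2b.2 stood at 12.7 FPKM (6.46 to 23.2) and tnnt1 at 0.87 FPKM (0.52 to 1.23). From tnnt3a downwards, apart from the pair tnni2b.1 and acta1a, each gene exceeded the next in 10 of 10 libraries.

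**Figure D1:**
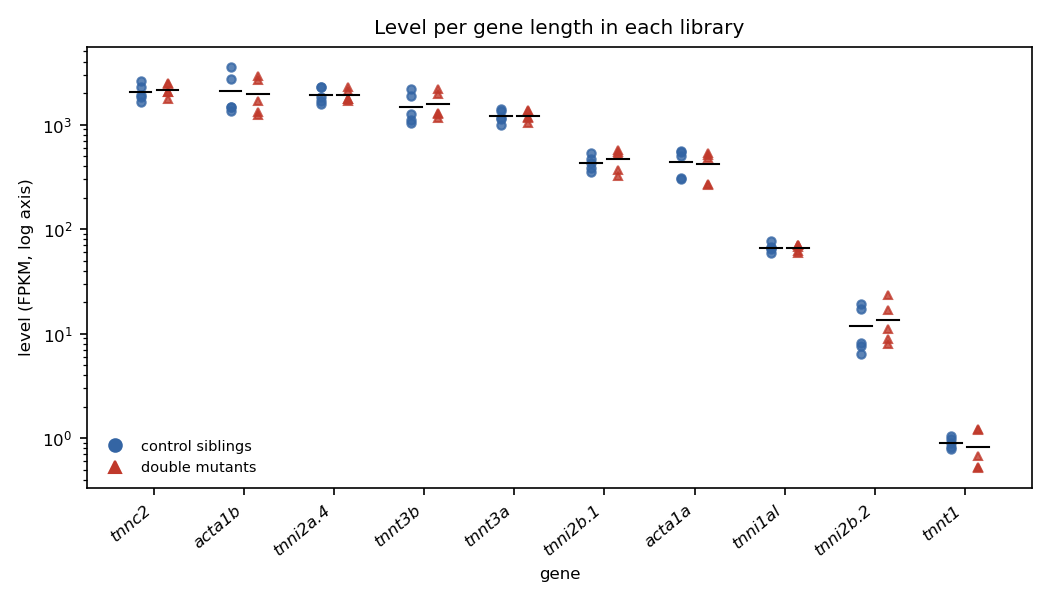
Level of each gene in FPKM (log axis), with genes ordered by their mean over 10 libraries, 1 point per library (circles, control siblings; triangles, double mutants) and a bar at each group's mean (n = 5). Tnnc2, acta1b and tnni2a.4 overlap at the top, and tnnt1 lies near 1 FPKM.

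Summed by subunit, the 3 troponin T genes reached 2014 to 3568 FPKM, the 4 troponin I genes 2093 to 2756 FPKM and tnnc2 alone 1646 to 2608 FPKM. In control 1 the sums were 2230.4 FPKM for troponin T, 2287 for troponin I and 1840.3 for troponin C. They lay further apart in control 4, at 3298, 2756 and 2273 FPKM, and in mutant 6, at 3568, 2705 and 2471 FPKM, where troponin T was the highest. The sum of acta1a and acta1b ranged more widely, from 1495 to 4105 FPKM. Within troponin I, tnni2a.4 carried 73.1 to 84.9% of the FPKM sum and tnni2b.1 11.9 to 23.5%. Tnni1al carried 2.3 to 3.19% and tnni2b.2 0.309 to 0.858%. Of the sum of acta1a and acta1b, acta1b carried 74.5 to 86.4%. That sum is not all alpha actin: actc1b, outside the set, averaged 6449 to 12694 CPM by replicate number, and acta1b 1746 to 4519 CPM. The troponin sums cover only the members too. Outside them, tnnt2c averaged 136 CPM in controls and 146 CPM in mutants, and tnnc1b 119.6 and 123 CPM. These CPM are not scaled to gene length and cannot be added to the FPKM sums.

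The series compared double mutants with control siblings. None of the 10 genes differed between the genotypes by the adjusted test, with or without the replicate number as a block, and the ranges of the groups overlapped for all 10. In edgeR's quasi-likelihood test without the block, 0 of the 10 passed an adjusted p of 0.05, where 0.00481% of 20802 tested genes did, and 0 had an unadjusted p under 0.05, where 1.95% of all tested genes did. With so few calls over all genes, a set of 10 could hardly hold a call. DESeq2, limma-voom and limma-trend also called 0 of the 10. The median log2 fold change of the 10 genes was -0.030, and that of all tested genes 0.0022.

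Blocking on the replicate number, edgeR again called 0 of the 10, where 0.255% of tested genes passed. At an unadjusted p under 0.05, 2 of the 10 did (acta1a and tnni2b.2), where 10.5% of tested genes did. The block matters for precision, since libraries of the same number resembled each other: over all tested genes their deviations from the group means correlated at 0.61 to 0.65. Between a control and a mutant library of different numbers the correlation ran from -0.55 to 0.56.

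For the abundant fast troponins tnnt3a, tnnt3b, tnni2a.4 and tnnc2 the blocked intervals were narrow. Tnnt3a was at 1066, 933, 1098, 1382 and 1319 CPM in controls 1, 2, 3, 4 and 6, and at 1097, 979, 1082, 1255 and 1315 CPM in the mutants of the same numbers. Levels followed the number and hardly the genotype: libraries 4 and 6 were the highest in both groups. Its blocked log2 fold change was -0.01 with a 95% interval of -0.10 to 0.08 (edgeR adjusted p 0.958), against -0.26 to 0.23 without the block.

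Tnnt3b was at 781, 739, 899.5, 1379 and 1536 CPM in the controls and 864, 808, 892, 1331 and 1573 CPM in mutants, in the order 1, 2, 3, 4 and 6. The groups covered nearly the same range, and the mutant was higher in 3 of 5 pairs. The blocked log2 fold change was 0.05, with a 95% interval of -0.04 to 0.14 (edgeR adjusted p 0.729). Tnni2a.4, the main inhibitory subunit by level, averaged 1139.8 ± 217 CPM in the control siblings and 1107 ± 166 CPM in the double mutants (SD, n = 5 each), and its blocked interval was -0.13 to 0.06. Tnnc2, the calcium sensor, averaged 2289 ± 423 and 2289 ± 335 CPM (SD, n = 5 each), with a blocked interval of -0.08 to 0.09.

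In the blocked fit the less abundant troponins had wider intervals than those 4. This did not hold without the block, where the SE of tnni1al was 0.0785 and that of tnnt3a 0.114. Tnni2b.1 averaged 331 ± 56.6 CPM in the controls against 336 ± 80.6 CPM in the mutants (SD, n = 5 each; blocked interval -0.11 to 0.12). Tnni1al was at 54.7 ± 5.27 and 51.6 ± 3.93 CPM (SD, n = 5 each; blocked interval -0.20 to 0.04). Tnnt1 had only 11 to 27 counts in a library, and with a blocked interval of -0.84 to 0.32 a difference of moderate size was not detectable at this depth.

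Tnni2b.2 was at 5.15, 4.35, 5.49, 12.1 and 13.5 CPM in controls 1, 2, 3, 4 and 6 and at 7.38, 5.32, 5.96, 11.3 and 16.1 CPM in the mutants. The mutant was the higher library in 4 of 5 pairs, the exception being number 4. The blocked estimate in edgeR was 0.20 on the log2 scale (SE 0.0913), with an unadjusted p of 0.0396 that adjustment over all genes took to 0.446. Without the block it was 0.19 (SE 0.374, adjusted p 1), and it turned to -0.10 without mutant 6. The blocked estimate stayed between 0.13 and 0.30 whichever pair was left out.

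Of the actins, acta1a was at 711, 430.4, 435, 794 and 830.0 CPM in the controls and 723, 379, 382, 689 and 781 CPM in mutants. The mutant was lower in 4 of 5 pairs, by 0.09 to 0.21 log2 units, and higher by 0.02 in pair 1. The blocked estimate in edgeR was -0.13 on the log2 scale (SE 0.0435, 95% interval -0.22 to -0.04), with an unadjusted p of 0.00883 that adjustment over all genes took to 0.286. Acta1b was at 1979.8, 1820.4, 1991, 3806 and 5018 CPM in the controls and 2247, 1672, 1786, 3606 and 4019 CPM in mutants. It too was lower in 4 of 5 pairs with pair 1 as the exception, and its blocked log2 fold change was -0.10 (95% interval -0.22 to 0.02, edgeR adjusted p 0.555). Without control 6 the unblocked value of acta1b went from -0.13 to 0.15. Its blocked value stayed between -0.17 and -0.05 whichever pair was left out.

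**Figure D2:**
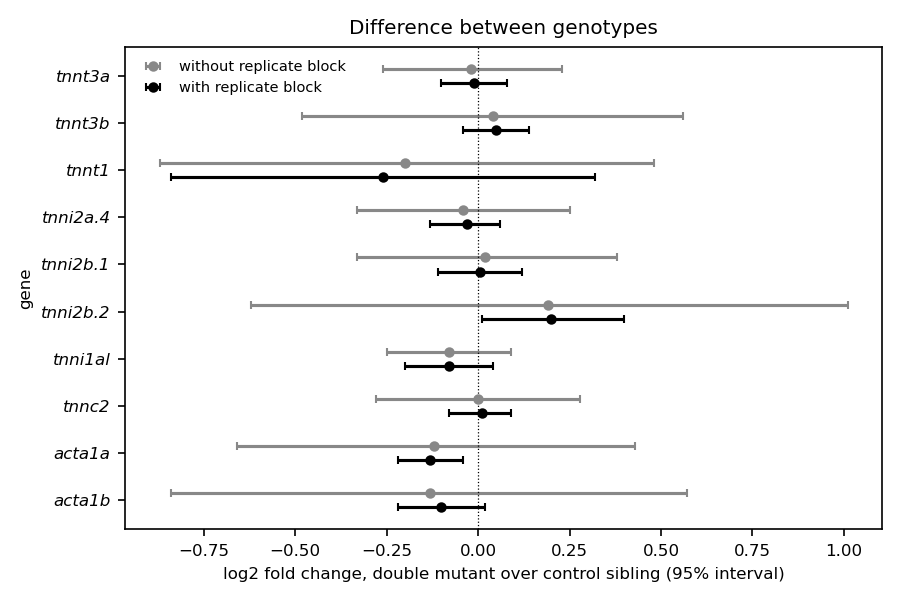
Log2 fold change of each gene, double mutant over control sibling, with its 95% interval, without (grey) and with (black) the replicate number as a block; the dotted line marks no difference. With the block 8 of the 10 intervals include 0, those of acta1a and tnni2b.2 do not, and no gene passes after adjustment over 20802 genes.

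The replicate numbers separated the same genes sharply. A quasi-likelihood F test in edgeR asked whether a gene differed among the 5 numbers, with genotype in the model and 2 libraries to a number. Of the 10 genes, 8 passed an adjusted p of 0.05, where 43.3% of all tested genes did. Higher counts make such a difference easier to detect, and among the tested genes with a mean of at least 100 CPM 62.1% passed, against 7 of the 7 members at that level. The test shows that the numbers differ beyond the spread left within them, and gives no cause.

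The distance between the highest and the lowest number, on the scale of log2(CPM + 0.5) and from the mean of both libraries of a number, had a median of 0.66 over the 10 genes, 0.40 over all tested genes and 0.27 over tested genes with at least 100 CPM. The median absolute difference between the mutant and the control library of a number, taken without the added 0.5, was 0.12 log2 units over the 50 such differences of the 10 genes. A distance between extremes tends to exceed a single difference, so these medians are not like measures. Number 6 was the highest for 8 of the 10 genes, and number 2 the lowest for 7. The shares of all tested genes to set beside these counts were not computed. Over all tested genes, 44.9% were highest in number 4 or 6, and of the 10 genes 9 were. Tnnt1 is counted in the 8 and the 9, and tnni1al in the 9, though neither passed the test between numbers. For tnnt3a numbers 4 and 6 were level, at 1318 and 1317 CPM.

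**Figure D3:**
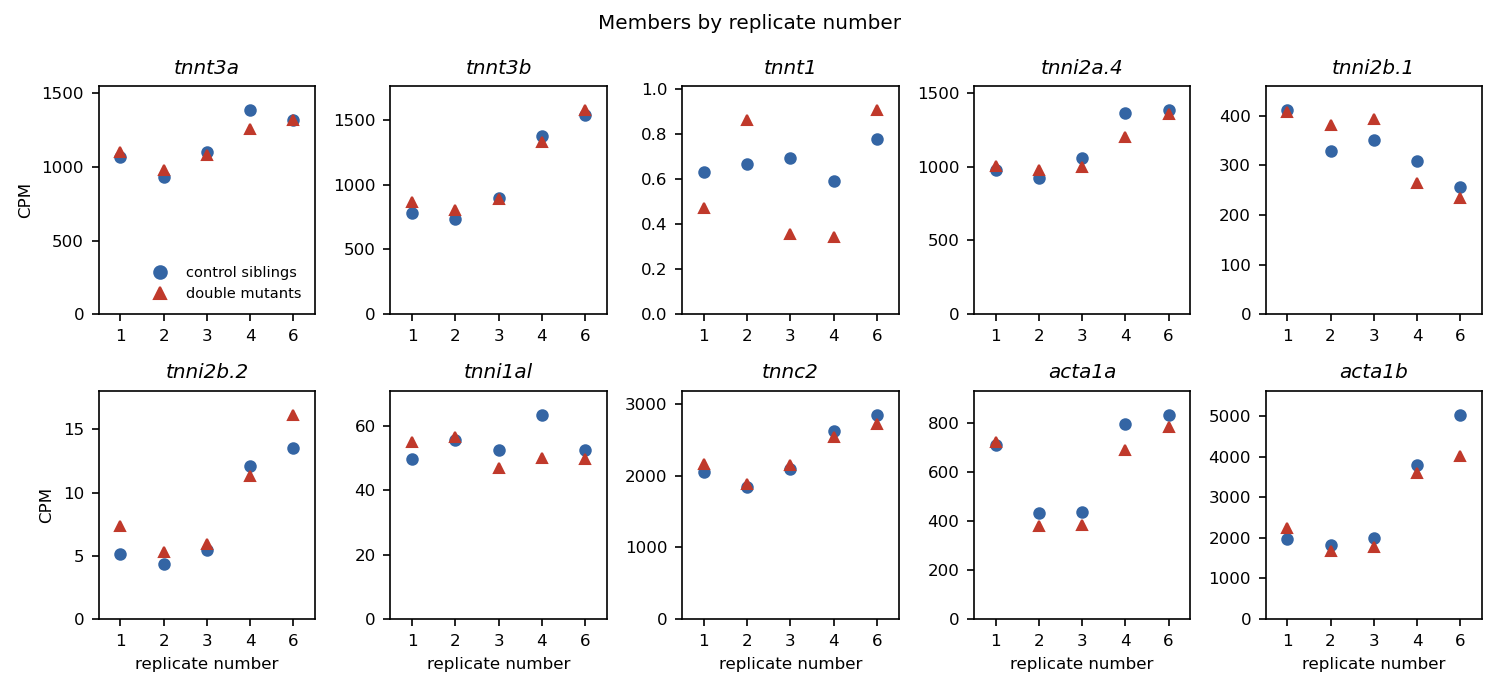
CPM of each gene (vertical axes from 0) by replicate number, with circles for control siblings and triangles for double mutants. The 8 called genes differ among the numbers beyond the spread left within them. Libraries of a number can still stand apart, as control 6 and mutant 6 do for acta1b (5018 and 4019 CPM). Numbers 4 and 6 are highest for most genes, tnni2b.1 runs the other way, and tnnt1 and tnni1al show no such order.

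Acta1b varied most in absolute terms. Its mean CPM was 2114, 1746, 1889, 3706 and 4519 for numbers 1, 2, 3, 4 and 6, a 2.57-fold distance between numbers 6 and 2 (edgeR adjusted p 8.63e-09). All 4 libraries of numbers 4 and 6 lay above all 6 others. Of all tested genes, 98% had a smaller distance between numbers. Acta1a followed a different order: its mean was 717 CPM in number 1, 405 and 408 CPM in numbers 2 and 3, and 742 and 806 CPM in numbers 4 and 6 (1.99-fold, adjusted p 6.14e-09). Number 1 thus stood with the high libraries for acta1a and with the low ones for acta1b.

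The fast troponins differed in how much they varied. Tnnt3b had means of 822, 773, 896, 1355 and 1555 CPM in numbers 1, 2, 3, 4 and 6 (2.01-fold, edgeR adjusted p 8.13e-09). Tnnt3a, its counterpart, covered a smaller distance, 1082, 956, 1089.8, 1318 and 1317 CPM (1.38-fold, adjusted p 8.88e-05). Tnnc2 (1.49-fold, adjusted p 8.65e-06) and tnni2a.4 (1.44-fold, adjusted p 2.62e-05) lay between them. For all 4 of these genes the 4 libraries of numbers 4 and 6 were the 4 highest.

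The tnni2b genes lie side by side in the gene order of the zebrafish assembly GRCz12tu, tnnt3b lies within 3 coding genes of tnni2b.1, and tnnt3a within 3 of tnni2a.4. Their levels in numbers 4 and 6 departed from the other numbers in opposite directions. Tnni2b.1 was highest in number 1, at 409 CPM, and stood at 355, 372, 287 and 245 CPM in numbers 2, 3, 4 and 6 (1.67-fold, edgeR adjusted p 3.99e-05). Tnni2b.2 stood at 6.26, 4.84, 5.72, 11.7 and 14.8 CPM in the same numbers, 2.86-fold between the highest and the lowest on that scale (adjusted p 3.35e-07). Tnni2b.1 was the only one of the 8 called genes with its 4 lowest libraries in numbers 4 and 6.

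The remaining pair did not pass. Tnni1al was at 49.7 to 56.7 CPM in the 5 numbers (1.13-fold, edgeR adjusted p 0.298), and 10.6% of tested genes had a smaller distance. Its call depended on a library: without mutant 4 the adjusted p was 0.029. Tnnt1 was at 0.468 to 0.842 CPM (adjusted p 0.328) and too low for its numbers to be told apart. Each of the other 8 genes passed in all 20 alternatives to this test, with a highest adjusted p of 0.00286 (tnnt3a) across edgeR, DESeq2 and limma.

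Ratios between members of a library do not depend on its depth or scaling, and 4 were compared. The ratio of tnnt3b to tnnt3a counts was 0.732, 0.792, 0.819, 0.998 and 1.16 in controls 1, 2, 3, 4 and 6, and 0.787, 0.825, 0.825, 1.06 and 1.2 in the mutants. Tnnt3b thus passed tnnt3a in counts in mutant 4 and in both libraries of number 6, and came level with it in control 4. Counts are not scaled to gene length, and in FPKM tnnt3b exceeded tnnt3a in 9 of 10 libraries. The mutant had the higher ratio in 5 of 5 pairs, by a mean of 0.06 log2 units, which gave p = 0.0625 in the exact sign-flip test, the smallest value 5 pairs allow, and p = 0.659 in the exact permutation test of the group labels (two-sided; BH adjusted over the 4 ratios 0.878).

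The ratio of acta1b to acta1a counts was 2.78, 4.23, 4.58, 4.79 and 6.05 in controls and 3.11, 4.42, 4.68, 5.24 and 5.15 in mutants. Number 1 had the lowest ratio in both groups. The difference between genotypes was smaller than the spread between libraries (log2 difference 0.03, exact permutation p = 0.889, sign-flip p = 0.75).

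The ratio of tnni2b.2 to tnni2b.1 counts was 0.0126, 0.0133, 0.0157, 0.0391 and 0.0529 in controls and 0.0181, 0.014, 0.0152, 0.0428 and 0.0686 in mutants. The 4 libraries of numbers 4 and 6 lay above the 6 others without overlap, a split read from the values and given no test. Between genotypes the log2 difference was 0.21 (mutant higher in 4 of 5 pairs, exact permutation p = 0.643, sign-flip p = 0.125).

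The ratio of tnnt3a to tnnt1, a fast and a slow troponin T gene, lay between 1117 and 3513. It is set largely by the 11 to 27 counts of tnnt1, and leaves out the other troponin T genes. Of these, tnnt2c, outside the set, averaged 136 CPM in controls and 146 CPM in mutants. The log2 mean of the ratio was 10.71 ± 0.27 (SD, n = 5) in controls and 11.01 ± 0.693 (SD, n = 5) in mutants, with an exact permutation p of 0.405. The smallest p that 5 libraries against 5 allow is 0.00794, and none of the 4 ratios came near it.

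**Figure D4:**
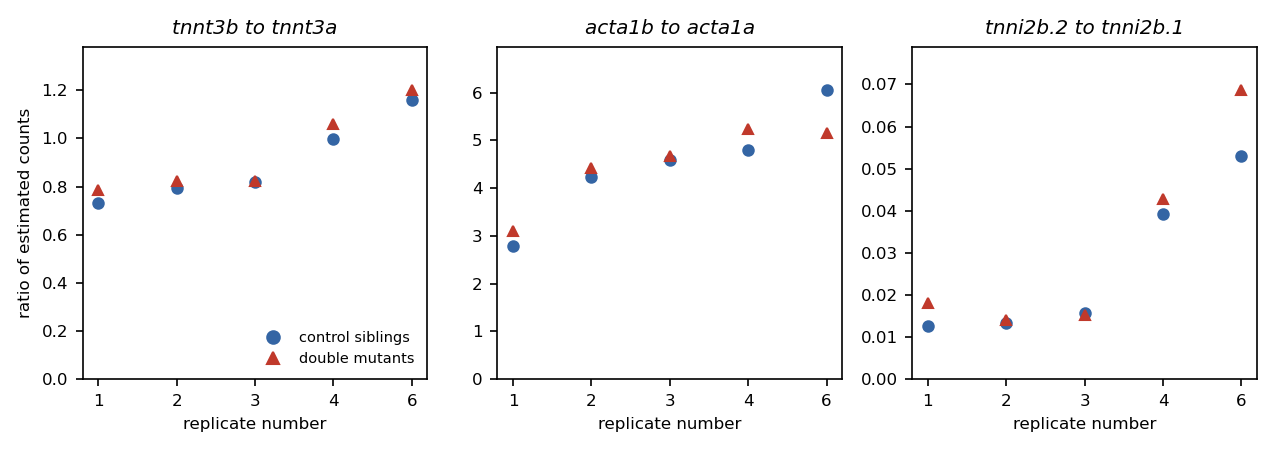
Ratio of estimated counts of a pair of genes in each library (axes from 0) by replicate number, with circles for control siblings and triangles for double mutants. All 3 ratios are higher in numbers 4 and 6 than in number 1 in both groups, and the libraries of number 6 stand apart from each other for acta1b to acta1a (6.05 and 5.15) and for tnni2b.2 to tnni2b.1 (0.0529 and 0.0686).

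Marker genes of other tissues also differed in summed level between the numbers. The summed level of the skeletal fibre markers was 17505, 18588, 21582, 29442 and 33861 CPM in controls 1, 2, 3, 4 and 6, and 18641, 17398, 20488, 28329 and 31595 CPM in the mutants. The 6 notochord markers, of which 5 were matched to a single gene, summed to 571 to 863 CPM in numbers 1, 2 and 3 and to 1647 to 1870.4 CPM in numbers 4 and 6. Epidermal markers (6 of 6 found) ran from 22763 CPM in mutant 4 to 34312 CPM in mutant 2, and were lower in number 4 than in number 2 in both groups. Heart muscle markers summed to 119.6 to 154 CPM, though 2 of the 6 were called between numbers in edgeR. Also called were 10 of 10 skeletal fibre, 4 of 5 notochord and 6 of 6 epidermal markers, where 43.3% of all tested genes were. Of these lists only heart muscle held genes called between genotypes in edgeR, 1 of 6 without the block and 2 of 6 with it, where 0.00481 and 0.255% of all tested genes were called.

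Red blood cell markers (5 of 6 matched to a single gene) ran from 2250.2 CPM in control 1 to 3822 CPM in control 2, neural markers (6 of 6 found) from 784 to 1169 CPM, and yolk syncytial markers (6 of 6 found) from 16842 to 23579.8 CPM with ttr under 1 CPM in all libraries. Every list overlapped between genotypes. The part of tissue make-up or stage in the differences between numbers was not tested.

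**Figure D5:**
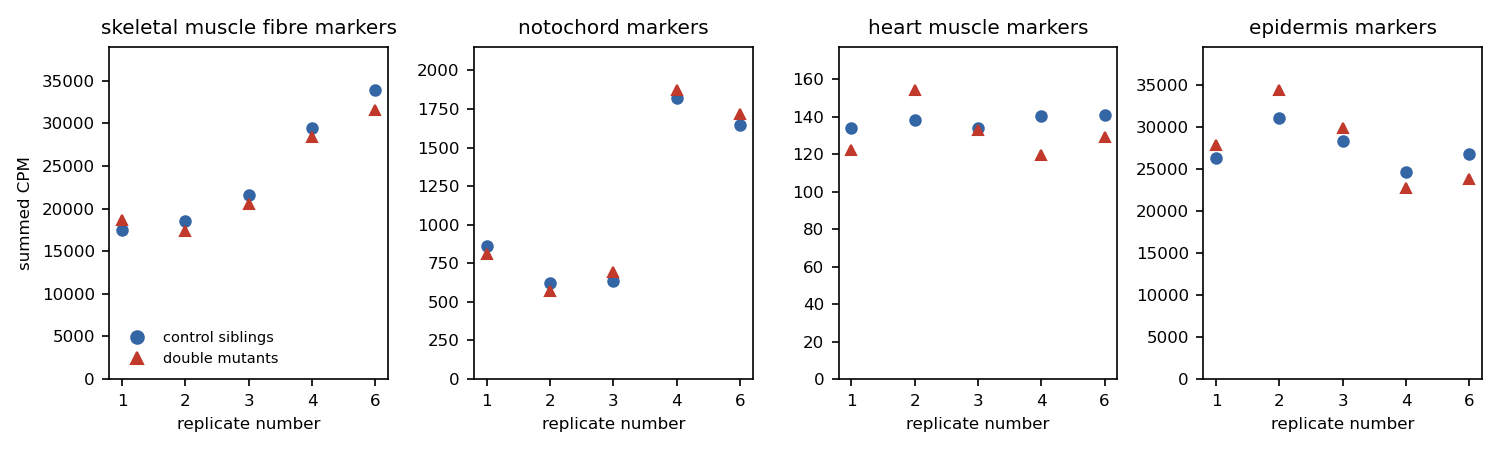
Summed CPM of marker genes in each library (axes from 0) by replicate number, with circles for control siblings and triangles for double mutants. Skeletal fibre and notochord markers are highest in numbers 4 and 6, heart markers stay between 119.6 and 154 CPM, and epidermal markers are highest in number 2.

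In 4 further lists of muscle genes, none was called between genotypes in edgeR, with or without the block. Of all tested genes only 0.255% were called with the block and 0.00481% without it, so lists of this size could hardly hold a call. Of 14 other troponin genes 10 were tested, and their median log2 fold change was 0.06, with 0 called. The other actin and thin filament genes (15 tested of 16 found) had a median of 0.00 with the block and 0 called, while 2 had an unadjusted p under 0.05 with the block. The genes of excitation and contraction coupling (18 tested) and of myogenic regulation and sarcomere assembly (16 tested) had medians of 0.01 and -0.00 without the block and 0 called each, with 1 and 2 genes under an unadjusted p of 0.05 in the blocked fit, where 10.5% of all tested genes were. DESeq2, limma-voom and limma-trend called 0 genes of the 4 lists as well, and DESeq2 called 6 over all genes. Without the block 0 genes of any of the 4 lists had an unadjusted p under 0.05, where 1.95% of all tested genes did.

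Between replicate numbers, 5 of the 10 other troponins were called in edgeR, where 43.3% of tested genes were. Of the 10, 3 were highest in number 4 or 6, where 44.9% of tested genes were. Tnnt2e (adjusted p 3.69e-06) was highest in number 4, at 46.7 CPM, against 24.9 CPM in number 1. Tnni1c (1.55-fold, adjusted p 0.000119) went the other way, with 34 CPM in number 2 and 21.7 in number 4, and tnni1d (adjusted p 0.00015) was highest in number 1, at 8.61 CPM. The tested gene of the list with the smallest unblocked p between genotypes, tnni1b, averaged 9.44 ± 1.06 CPM in the controls against 10.5 ± 1.28 CPM in the mutants (SD, n = 5 each; edgeR adjusted p 1).

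Of the other thin filament genes 10 of 15 (66.7%) were called between numbers, beside 43.3% of all tested genes and 62.1% of those with at least 100 CPM. Of the 15, 10 were highest in number 4 or 6, where 44.9% of tested genes were. Actc1b, an alpha actin named for the heart whose counts exceeded those of acta1b, stood at 6449, 6819.6, 7332, 11415 and 12694 CPM in numbers 1, 2, 3, 4 and 6 (edgeR adjusted p 1.8e-08). Neb, which codes for nebulin, the giant protein that runs along the thin filament, stood at 512, 444, 716, 990.0 and 1219 CPM (2.76-fold, adjusted p 5.76e-08). Nrap, a factor of early myofibril assembly, was at 85.2 CPM in number 6 and 48.9 in number 2 (adjusted p 8.15e-07). Acta2, the smooth muscle alpha actin gene, had the smallest unblocked genotype p of the list and averaged 5.89 ± 1.54 CPM in the controls against 7.87 ± 3.62 CPM in the mutants (SD, n = 5 each), with an edgeR p of 0.225 before adjustment and 1 after it. In the blocked fit its p was 0.0175, adjusted to 0.345.

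All 18 coupling genes were called between numbers in edgeR, beside 43.3% of all tested genes and 62.1% of those with at least 100 CPM. Of the 18, 17 were highest in number 4 or 6, where 44.9% of tested genes were. Atp2a1, the calcium pump of the sarcoplasmic reticulum in fast fibres, stood at 4657, 4766, 6189.7, 9142 and 11112 CPM (adjusted p 3.53e-09). Ryr1b, a calcium release channel gene, was 2.71-fold higher in number 6 than in number 2 (adjusted p 3.56e-08), and jph1b, a junctophilin gene, 2.05-fold higher than in number 1 (adjusted p 1.06e-08). The exception was chrng, the gene of the acetylcholine receptor gamma subunit, with 7.4 CPM in number 3 and 2.39 in number 4 (adjusted p 7.44e-06). Chrng also had the smallest genotype p of the list in both fits, averaging 4.41 ± 2.1 CPM in the controls against 5.64 ± 2.43 CPM in the mutants (SD, n = 5 each). Before adjustment its edgeR p was 0.368 in the unblocked fit and 0.00617 in the blocked one, which adjustment took to 0.24.

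Among the myogenic regulators and assembly factors 9 of 16 (56.2%) were called between numbers, beside 43.3% of all tested genes. Only 7 of the 16 were highest in number 4 or 6, where 44.9% of tested genes were. The transcription factor genes mef2ca (76 CPM in number 1, 121 in number 6, edgeR adjusted p 2.73e-07) and mef2cb (23.1 CPM in number 2, 34.8 in number 4, adjusted p 2.49e-05) had their higher levels in numbers 4 and 6, as tnnt3a, tnnt3b, tnni2a.4 and tnnc2 did. The chaperone gene hsp90aa1.1 had its lowest level there (265 CPM in number 3, 149 in number 4, adjusted p 1.47e-06), and its blocked genotype p was 0.0155 in edgeR, adjusted to 0.335. Prdm1a was lowest in number 4 too (35.8 CPM in number 2, 25.7 in number 4, edgeR adjusted p 0.000283). Six1b, with the smallest unblocked genotype p of this list, averaged 34.6 ± 1.35 CPM in the controls against 36.6 ± 2.76 CPM in the mutants (SD, n = 5 each), with an edgeR p of 0.27 before adjustment, while the smallest blocked p was that of hsp90aa1.1.

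Over the 10 libraries, each member was set against the mean z score of the other 9. Tnni2a.4 was the most typical, with a Pearson r of 0.95, followed by acta1b at 0.93, tnnt3a and tnni2b.2 at 0.91, and tnnt3b and tnnc2 at 0.90. Acta1a was at 0.77, tnni1al at 0.13, tnnt1 at 0.11 and tnni2b.1 at -0.80. The non-members with the most similar pattern, among 10391 genes with at least 10 CPM, were mylpfa (r = 0.962), nell2a (0.961), pvalb2 (0.961), mylpfb (0.958) and ak1 (0.957). Mylpfa and mylpfb code for fast myosin light chains and pvalb2 for a calcium-binding parvalbumin of muscle. These coefficients describe 10 libraries that share numbers in pairs, and carry no test.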

How the data were processed

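RNA-seq of whole-embryo pools was analysed from the single table that the authors deposited, with an expected count (fractional where reads were shared) and log2(FPKM + 0.1) for each gene and library, as read from the file header and its values. Per the submitters' processing notes, STAR 2.5.3a, RSEM 1.3.0 and the build GRCz10 were used, with no role stated; annotation release and strand setting: not given in the sources used here. Per the labels' protocols, libraries were polyA-captured and strand-specific.

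Expected counts were rounded and tested with edgeR 4.0.16 (R 4.3.3; filterByExpr, TMM factors, robust quasi-likelihood test) for genotype and, in a model with genotype, for replicate number. P-values were adjusted over 20802 tested genes (Benjamini-Hochberg, BH; threshold 0.05). CPM values use the TMM factors, and the log2 FPKM values were returned to FPKM. Ratios of counts (each + 0.5) were tested by exact permutation over all assignments of libraries to groups. The fits were checked on simulated counts with a spread near that of the blocked fit. That spread is smaller than in the unblocked fit, so the check does not show what the unblocked test can detect. Replicate numbers were read as pairs, since same-numbered libraries correlated at 0.61 to 0.65 over genes (over 0.1 in 5 of 5 pairs) and others at -0.55 to 0.56. With the block the biological coefficient of variation common to all genes was 6.94%, against 17.6% without it. Nothing says that replicates came from separate clutches, so p-values measure the spread between these pools. Alternatives were DESeq2 1.42.0, limma 3.58.1 (voom, and trend on log2 FPKM with a pseudocount of 1 or 0.1), other size factors, no filter, and leaving out libraries or pairs. The members and lists were chosen with earlier results of these data known. Beside the members, the text names the 5 genes most similar in pattern and, from each list, genes among the 3 with the smallest p in each test.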

Additional observations from a re-analysis of the deposited data

How the results depend on the processing

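The number of members called between genotypes was 0 in all 22 alternatives, the replicate block included, and the number called between replicate numbers was 8 in 19 of 20 alternatives and 9 without mutant 4. With the replicate number as a block 53 of all tested genes were called between genotypes, against 1 without it and 6 with DESeq2. None of the 10 log2 fold changes between genotypes passed an adjusted p of 0.05 in any setting. Except for acta1a and tnni2b.2, whose blocked 95% intervals left out 0, a change of sign among them is a change around 0. Libraries were left out of the unblocked fit and pairs out of the blocked one, and the ranges below cover both. The ranges were -0.09 to 0.04 (tnnt3a), -0.13 to 0.20 (tnnt3b), -0.13 to 0.03 (tnni2a.4) and -0.06 to 0.13 (tnni2b.1). They were -0.10 to 0.44 (tnni2b.2), -0.07 to 0.09 (tnnc2), -0.24 to 0.01 (acta1a) and -0.33 to 0.15 (acta1b). The fold changes of tnnt1 (-0.46 to -0.05) and tnni1al (-0.14 to -0.01) kept their sign throughout. In the blocked fit, tnnt3b (0.02 to 0.07) and tnni2b.2 (0.13 to 0.30) stayed positive whichever pair was left out. Acta1a (-0.17 to -0.11) and acta1b (-0.17 to -0.05) stayed negative there. With the block, leaving out pair 4 turned tnnt3a to 0.02 and tnni2a.4 to 0.0043, leaving out pair 2 or 3 turned tnni2b.1 to -0.05 or -0.04, and leaving out pair 1, 2 or 3 turned tnnc2 to -0.01, -0.01 or -0.0003. Without the block, tnnt3a turned to 0.01 with limma-trend on either FPKM scale, and tnnc2 to -0.0024 with DESeq2 and with its size factors in edgeR. The 4 ratios passed no threshold under any alternative, though the sign-flip test, the only paired one, cannot go under 0.0625 with 5 pairs. Without single libraries their genotype differences lay between -0.03 and 0.16 (tnnt3b to tnnt3a) and between -0.13 and 0.16 (acta1b to acta1a). They lay between -0.14 and 0.52 for tnni2b.2 to tnni2b.1 and between 0.10 and 0.52 for tnnt3a to tnnt1. No gap of a single library was large enough to mark it as standing apart in 28 groups of 5. Depth limits only tnnt1 and, to a lesser degree, tnni2b.2.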
